A study of Mus musculus with 12 samples.

Results

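For every gene on the arrays, the effect of giving soluble CD74 (sCD74) and macrophage migration inhibitory factor (MIF) together was set against the sum of their single effects. The departure from additivity is the log2 value with both proteins minus that with sCD74, less the value with MIF minus that with carrier. It was taken within each replicate number, so that each gene had 3 departures built from 4 arrays each. No gene was selected: of 28846 probe sets, 22206 were not controls, and 19505 genes with a symbol stood for them in the tests, the same 19505 that the whole series offers. A departure of 0 on the log2 scale means that the fold changes of the single treatments multiply.

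The 12 arrays carried RNA of cultured cardiac fibroblasts from wildtype C57BL/6J mice 1 to 7 days old. After 10 to 14 days in culture the cells had become myofibroblasts, the contractile form of the fibroblast that secretes matrix. Each of the 4 groups had 3 arrays: carrier, 40 nM sCD74, 8 nM MIF, or both at these doses, each for 8 h. Whether each replicate number was its own isolation of cells is not in the labels, so the p-values speak for the spread among these arrays only, and their number limits the precision.

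MIF is a cytokine that is released by stressed and inflamed tissue and signals through CD74 together with CD44 or with chemokine receptors. In heart tissue it is known both for protection of cardiomyocytes and for recruitment of inflammatory cells. The CD74 ectodomain can be shed from cells and binds MIF in solution, so that a mixture of both proteins may act otherwise than each alone. NF-kappaB targets, chemokines, interferon-inducible genes, necroptosis genes and matrix genes are the transcripts through which such a response is commonly read in fibroblasts.

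The cultures were fibroblast in kind by their markers and also held macrophage, endothelial and some cardiomyocyte marker transcripts. The mean log2 level over the 11 measured fibroblast markers lay between 13.82 and 13.99 on every array, and only Pi16 among them lay below 7.53, the mean of the arrays' negative control medians. All 17 measured macrophage markers lay above that line in every group. Most neutrophil and mast cell markers (9 of 10) and lymphocyte markers (9 of 10) lay below it in at least 1 group. Of 11 measured endothelial markers, only Cldn5 lay below it in any group. Of 14 cardiomyocyte markers, 6 lay below it in every group. The mean level over these 14 was 8.73 to 9.02 on arrays of replicate numbers 1 and 2, and 7.58 to 7.64 on those of number 3. Array medians ran from 8.01 to 8.14, and the gap between positive and negative control medians from 3.67 to 4.25.

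No gene passed the test of a departure from additivity. With limma and Benjamini-Hochberg adjustment at 0.05, 0 of 19505 genes (0%) were called, and the smallest adjusted p was 1.00. At an unadjusted p under 0.05 there were 752 genes (3.86%), against 5% for p-values spread evenly. Of these 394 (2.02%) lay above the sum and 358 (1.84%) below it. The fit without the replicate block also called 0 genes, with 363 at that unadjusted p, and the moderated one-sample test of the 3 departures called 0, with 1036.

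The departures of a gene bore little relation between replicate numbers. Across the 19505 genes, which are not independent replicates, they correlated with r = 0.08 between numbers 1 and 2, -0.03 between 1 and 3 and 0.01 between 2 and 3. The 3 sets of departures share no array. All 3 lay above 0 in 2683 genes (13.8%) and all below 0 in 2541 (13%). At a size of 0.5 or more in each number, 31 genes (0.159%) lay above and 29 (0.149%) below. The median standard error of a departure was 0.20 and the median reach of its 95% interval to each side 0.43. For a typical gene, departures below about that size could not be told from 0 even without adjustment. The interval is not adjusted for the 19505 genes. The adjusted test did not call larger fitted values either, such as 0.90 for the gene with the smallest p. Only 5 genes had a mean departure of 1 or more in size, and all 5 lay below the negative control median in some group.

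The gene with the smallest p was Fbxo36, which encodes an F-box protein, the kind of subunit that picks substrates for ubiquitin ligases. Its log2 values in replicate numbers 1, 2 and 3 were 8.33, 8.82 and 8.54 with carrier, 7.94, 8.46 and 8.24 with sCD74, 8.18, 8.47 and 8.28 with MIF, and 8.66, 9.13 and 8.78 with both. Each single treatment lay below carrier within every number, and co-treatment lay above it. The departure was 0.90 ± 0.15 (SE, n = 3), with 0.87, 1.02 and 0.80 in the 3 numbers and an unadjusted p of 5.68e-05 in limma's fit, which became 1.00 after Benjamini-Hochberg adjustment. It was chosen for small p and departures of a single sign, so a stable sign under other settings adds little. Leaving out arrays gave 0.83 to 0.95.

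The other 11 genes were named above the sum by smallest p with 3 departures of that sign and levels above the negative control median. Glipr1, a member of the CAP family of secreted and membrane proteins, stood at 12.38, 13.68 and 13.33 with carrier, 11.74, 13.32 and 12.58 with sCD74, 11.83, 13.06 and 13.05 with MIF, and 11.98, 13.40 and 12.97 with both. Co-treatment stayed below carrier in each number but fell short of the summed single effects, -1.06, by 0.72 ± 0.19. Cd300ld, an immunoglobulin-like receptor of myeloid cells, had departures of 0.94, 0.71 and 0.86, and its mean with both was -0.03 from carrier while the single effects summed to -0.86. Cbr2 (a carbonyl reductase) departed by 0.94 ± 0.26, with 1.53 in number 1 against 0.63 and 0.64 in the others.

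The other 8 were Pabpc4l (related to poly(A)-binding proteins) at 0.84, Dhx37 (an RNA helicase of ribosome assembly) at 0.82, Gpr137 at 0.77, Dand5 (a secreted antagonist of Nodal) at 0.65, Galt (galactose-1-phosphate uridylyltransferase) at 0.59, Tubb4a (a beta-tubulin) at 0.58, Syf2 (a splicing factor) at 0.56 and Micall1 (endocytic recycling) at 0.56. In all 12 genes the single effects summed to a negative value, between -1.17 and -0.44, and co-treatment lay between -0.34 and 0.30 of carrier. Single-treatment arrays enter the departure with a minus sign, so the opposite signs of the sum and the departure are in part arithmetic. On the linear scale, in units of the carrier level, the departures of these genes were smaller numbers, among them 0.40 for Glipr1, 0.49 for Cd300ld, 0.58 for Cbr2 and 0.45 for Pabpc4l, with the same sign.

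Among the genes named below the sum, the smallest p belonged to Il5, which encodes the type 2 cytokine interleukin-5. Its log2 values were 8.05, 7.97 and 7.86 with carrier, 8.23, 8.48 and 8.12 with sCD74, 8.34, 8.50 and 8.16 with MIF, and 8.02, 8.05 and 7.96 with both. Both single treatments lay above carrier in each number, co-treatment lay near carrier, and the levels were within 1 log2 unit of the negative control median. The departure was -0.64 ± 0.16 (-0.50, -0.96 and -0.46).

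Traf6, the ubiquitin ligase that relays signals of interleukin-1 and Toll-like receptors to NF-kappaB, also lay below the sum. It stood at 9.69, 9.68 and 9.99 with carrier, 10.06, 10.00 and 10.06 with sCD74, 10.16, 10.27 and 10.23 with MIF, and 10.10, 9.93 and 9.91 with both. All MIF arrays lay above all carrier arrays, and all co-treated arrays lay below all MIF arrays. The departure was -0.49 ± 0.17 (-0.43, -0.66 and -0.39), with an unadjusted p of 0.0122 in limma's fit and 1.00 after Benjamini-Hochberg adjustment.

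The others below the sum were Apold1 (an early response gene of endothelial cells) at -0.61, Skint11 at -0.56 (-0.33 without replicate 1), Eid3 (a subunit of a chromosome maintenance complex) at -0.54, Zswim4 at -0.52, Ankle1 (an endonuclease) at -0.50, Las1l (ribosome biogenesis) at -0.49, Dtx3 at -0.48, Dzip1l (a protein of the primary cilium) at -0.47, Morc3 (a nuclear body ATPase) at -0.47 and Wfdc18 at -0.40. In these 12 genes the single effects summed to between 0.12 and 0.74, and co-treatment lay between -0.36 and 0.20 of carrier. As for the genes above the sum, the opposite signs of the sum and the departure are in part arithmetic. None of the 24 passed the adjusted test, and none changed sign in the 192 values under other settings or the 360 with arrays left out. The genes were chosen for small p and departures of a single sign, so a stable sign followed largely from that choice.

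**Figure D1:**
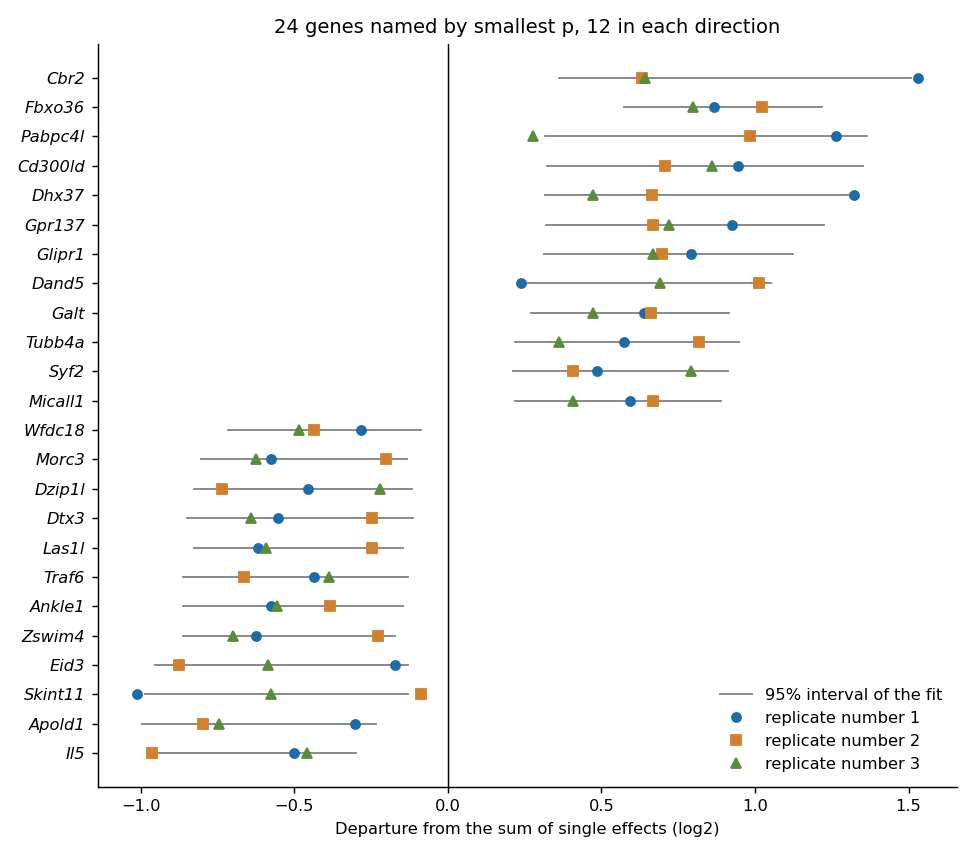
Departure from the sum of the single effects on the log2 scale for the 24 genes named by smallest p, with 1 point for each of the 3 replicate numbers and the 95% interval of the fit as a line. The points of Fbxo36 lie between 0.80 and 1.02, and the genes were chosen for departures of a single sign.

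Macrophage markers lay above the sum of the single effects. Of the 17 measured, 16 had a mean departure above 0, 14 were above 0 in all 3 replicate numbers (against 13.8% of all genes), and 6 had an unadjusted p under 0.05 (against 2.02%). None passed the adjusted test. The median departure was 0.36, with 0.60, 0.24 and 0.34 in numbers 1, 2 and 3, against a median of -0.004 over all genes. These markers are transcripts of the same cells and do not vary independently.

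Promoters of 3 of these genes are shown because their departures kept a single sign, and the motifs and genes were chosen after the departures were seen. They are RefSeq sequences of the GRCm38.p6 assembly, 200 bases before to 20 after an annotated start, read along the gene's strand. Aif1 (chr17:35176033-35176252, minus strand), C1qc (chr4:136892895-136893114, minus strand) and C1qb (chr4:136886181-136886400, minus strand) lay above the sum in every replicate number. Capitals mark the core letters of the PU box, GAGGAA, on either strand, the element read by the myeloid factor PU.1.
Aif1: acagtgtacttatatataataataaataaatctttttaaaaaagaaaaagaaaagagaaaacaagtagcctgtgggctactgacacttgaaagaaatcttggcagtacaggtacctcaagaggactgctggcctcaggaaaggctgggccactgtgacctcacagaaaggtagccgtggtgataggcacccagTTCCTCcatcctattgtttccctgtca
C1qc: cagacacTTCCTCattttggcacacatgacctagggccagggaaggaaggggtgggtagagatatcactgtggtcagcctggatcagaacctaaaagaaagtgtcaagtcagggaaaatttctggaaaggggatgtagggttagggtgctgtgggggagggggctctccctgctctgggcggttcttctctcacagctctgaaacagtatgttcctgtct
C1qb: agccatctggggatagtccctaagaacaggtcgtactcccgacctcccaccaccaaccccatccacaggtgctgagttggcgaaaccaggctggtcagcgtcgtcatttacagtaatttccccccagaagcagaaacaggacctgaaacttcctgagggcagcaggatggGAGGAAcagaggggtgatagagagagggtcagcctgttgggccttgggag

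Over windows of 250 bases before to 50 after the start, GAGGAA occurred in 9 of 12 macrophage genes with a window, against 30.3% of the 15691 tested genes with one. A longer form searched first, GAGGAAGT, occurred in 1 of the 12, C1qc, against 3.53% of genes. A match is a description of the letters in the window only.

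Aif1, a calcium-binding protein of macrophages and microglia, had the smallest p of the list. Its log2 values were 10.99, 12.66 and 12.59 with carrier, 10.12, 12.29 and 11.77 with sCD74, 10.68, 12.27 and 12.53 with MIF, and 10.44, 12.51 and 12.56 with both. The sCD74 array lay below the carrier array in each number, while co-treatment lay near carrier in numbers 2 and 3, and number 1 was lowest in every group. The departure was 0.70 ± 0.21 (0.64, 0.61 and 0.84), with an unadjusted p of 0.00695 in limma's fit.

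Tyrobp, the adaptor of activating myeloid receptors, stood at 12.64, 14.18 and 13.86 with carrier, 12.11, 14.06 and 13.16 with sCD74, 12.18, 13.87 and 13.66 with MIF, and 12.42, 14.06 and 13.46 with both. Both single treatments and co-treatment lay below carrier in each number, and the departure was 0.53 ± 0.19. C1qc, a chain of complement C1q, departed by 0.55 ± 0.22 (0.90, 0.28 and 0.48). C1qb, another chain, which was chosen after its values were seen, stood at 14.88, 15.38 and 15.22 with carrier, 14.35, 15.54 and 14.60 with sCD74, 14.27, 15.33 and 15.32 with MIF, and 14.74, 15.88 and 15.09 with both. Its departure was 0.59 ± 0.26, and in number 2 co-treatment was the highest array of all.

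The lowest members were Cx3cr1, a chemokine receptor (-0.11), and Cd14, a lipopolysaccharide co-receptor (0.08, with -0.73 in number 1). Taken over the list, the median single effect was -0.33 with sCD74 and -0.19 with MIF, against -0.13 with both, so co-treatment lay nearer to carrier than the sum, -0.52. The single effects differed between numbers 1, 2 and 3: -0.53, 0.02 and -0.44 with sCD74, and -0.26, -0.25 and -0.04 with MIF. With both they were -0.23, 0.01 and -0.15. Here too the opposite signs of the sum and the departure are in part arithmetic. The mean level of the 17 markers ran from 12.84 to 13.91 with carrier, 12.42 to 13.92 with sCD74, 12.62 to 13.67 with MIF and 12.65 to 13.96 with both, and these ranges overlap. In bulk RNA, fewer macrophages and less of their RNA per cell cannot be told apart. Leaving out MIF replicate 2 lowered the median departure to 0.21, and leaving out sCD74 replicate 2 raised it to 0.51. On a linear scale, where 0 means that amounts add and the unit is the carrier level, the median was 0.20, with 0.38 for Aif1, 0.30 for Tyrobp and 0.31 for C1qc.

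Some genes outside the list that lay above the sum are known from macrophages too, among them Cd300ld, Clec4e, Cxcl13 and Bst2. They were picked after their values were seen, and Acod1, also known from macrophages, differed in sign between the numbers. With MIF alone, Clec4e lay at 0.76 and Cxcl13 at 0.25 from carrier, but Cd300ld at -0.33 and the marker median at -0.19. The macrophage markers had a median departure of 0.36, and their part in the values of the genes outside the list was not tested.

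Extracellular matrix genes lay slightly below the sum. Of 31 measured, 28 had a mean departure below 0 (against 9922 of all 19505 genes) and 18 were below 0 in all 3 numbers (against 13% of all genes), but 0 had an unadjusted p under 0.05 (against 3.86%). The median was -0.13, with -0.19, -0.10 and -0.04 in the 3 numbers, which is smaller than the reach of a typical gene's interval. Leaving out replicate 1 brought it to -0.08, and leaving out carrier replicate 3 to -0.19. Fibroblast markers lay below the sum beside the matrix genes, with a median of -0.12 over 11 genes (-0.19, -0.12 and -0.01). Of these 11, 5 (45.5%) were below 0 in all 3 numbers, against 13% of all genes, and Col1a1, Col3a1, Dcn, Lum and Postn stand in both lists. The macrophage markers lay on the other side of the sum, at 0.36, and the part of either cell type in the matrix and TGF-beta values was not tested.

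Col1a1, the main chain of fibrillar collagen I, stood at 15.94, 15.94 and 15.96 with carrier, 16.30, 16.16 and 16.12 with sCD74, 16.37, 15.97 and 16.13 with MIF, and 16.38, 16.05 and 16.01 with both. Each treated array lay above each carrier array, and co-treatment lay below the sCD74 array in numbers 2 and 3 and just above both single treatments in number 1. Its departure was -0.26 ± 0.16, and -0.16 without carrier replicate 1. Col5a2, a collagen V chain with the smallest p of the list, had -0.35 ± 0.17 (-0.48, -0.16 and -0.41), and -0.23 without carrier replicate 1. Col6a3, a collagen VI chain, had -0.33 ± 0.23 (-0.70, -0.35 and 0.05), which ranged from -0.15 without replicate 1 to -0.52 without replicate 3. Fbn2 (fibrillin-2, 0.12), Vcan (versican, 0.05) and Col8a1 (0.05) had mean departures above 0.

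Genes of the TGF-beta response, the main driver of myofibroblast conversion, showed a similar median of -0.13. Of 23 measured, 11 (47.8%) were below 0 in all 3 numbers, against 13% of all genes. None had an unadjusted p under 0.05, against 3.86% of all genes. Ccn2, a matricellular target of TGF-beta, departed by -0.62 ± 0.31, but by -1.58, -0.32 and 0.02 in the 3 numbers, and leaving out replicate 1 gave -0.15. Thbs1 (thrombospondin-1, an activator of latent TGF-beta) had -0.42 ± 0.20 (-0.73, -0.23 and -0.32, or a mean of -0.27 without replicate 1), and Pmepa1 (a feedback inhibitor) had -0.37 ± 0.18. Among the ligands, Tgfb1 lay at 0.30 and Tgfb3 at -0.21. Leaving out carrier replicate 1 brought the list's median to -0.05.

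**Figure D2:**
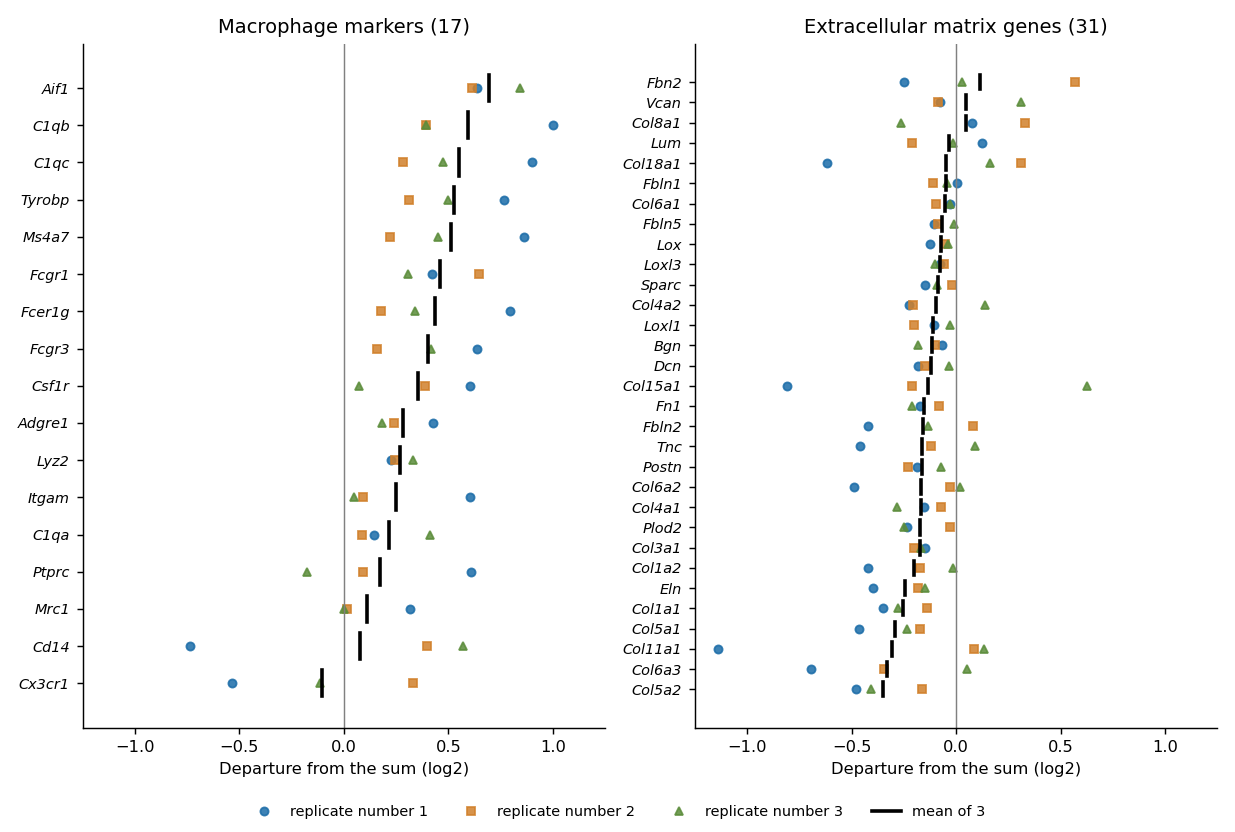
Departure from the sum on the log2 scale for the 17 macrophage markers and the 31 extracellular matrix genes, with 1 point per replicate number and a bar at the mean of 3. Macrophage markers sit mostly right of 0, with 16 of 17 means above it, and matrix genes mostly left, with 28 of 31 means below it.

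NF-kappaB targets were close to the sum. The median departure of the 28 measured was -0.05, with 0.01, 0.02 and -0.14 in the 3 numbers. In all of them, 4 (14.3%) were above and 5 (17.9%) below 0, near the 13.8% and 13% of all genes. Birc3, an inhibitor of apoptosis and a direct NF-kappaB target, stood at 11.94, 12.42 and 12.10 with carrier, 11.96, 12.32 and 12.26 with sCD74, 12.41, 13.23 and 13.23 with MIF, and 12.68, 13.06 and 13.21 with both. The arrays with MIF, alone or with sCD74, lay above the carrier array of the same number, and those with sCD74 alone lay near it. The effect of both was 0.83 against a sum of 0.84, and the departure was -0.01 with a 95% interval from -0.43 to 0.42.

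Nfkbia, the inhibitor that closes the NF-kappaB loop, showed the same level pattern: 0.63 with both against a sum of 0.60, and a departure of 0.03 ± 0.20 (0.47, -0.13 and -0.26). Bcl2a1a, an anti-apoptotic gene of myeloid cells, was the only member with an unadjusted p under 0.05, at 0.44 ± 0.16 (0.27 without replicate 2), while Rel (an NF-kappaB subunit) had 0.39 ± 0.20 (0.24 without replicate 1). Cflar, the caspase-8 inhibitor, had -0.34 ± 0.17 (-0.31, -0.19 and -0.52). The unadjusted intervals of Birc3 and Nfkbia reach about 0.4 in each direction, so smaller departures could not be told from 0. The adjusted test would need larger ones still.

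Chemokine departures depended on the replicate number. The median over 26 genes was 0.10, with 0.45, 0.04 and -0.15 in numbers 1, 2 and 3. In these numbers 22, 15 and 11 genes lay above 0, and the medians over all genes were -0.02, 0.01 and 0.01. Of the 26, 9 lay below the negative control median in some group and are counted here. Ccl2, the chief attractant of monocytes, stood at 13.23, 13.92 and 12.48 with carrier, 13.18, 13.63 and 13.77 with sCD74, 13.00, 14.996 and 15.43 with MIF, and 14.72, 14.78 and 15.26 with both. With MIF alone, numbers 2 and 3 lay above their carrier arrays and number 1 lay below, whereas all co-treated arrays lay above all carrier arrays.

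The departure of Ccl2 was accordingly 1.77, 0.08 and -1.46, with a mean of 0.13 ± 0.61, and leaving out replicate 1 or replicate 3 gave -0.69 or 0.93. Ccl7, a related monocyte attractant, had 1.56, 0.09 and -0.80 (mean 0.28 ± 0.37), and leaving out replicate 1 gave -0.36. For both genes the departures of numbers 1 and 3 had opposite signs, and the mean says little about either.

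Of the 26 chemokines, 7 (26.9%) were above 0 in all 3 numbers, against 13.8% of all genes. Below 0 in all 3 was 1 (3.85%), against 13%. Cxcl13, the B cell attractant, and Cx3cl1, the ligand of Cx3cr1, were among those that kept a single sign. Cxcl13 stood at 9.13, 8.36 and 8.44 with carrier, 8.47, 8.23 and 8.36 with sCD74, 8.79, 8.65 and 9.24 with MIF, and 9.46, 8.94 and 9.63 with both. Co-treatment was the highest array in each number, and the departure was 0.74 ± 0.26 (1.33, 0.42 and 0.47), with 0.44 when replicate 1 was left out. Cx3cl1 departed by -0.36 ± 0.15 (-0.39, -0.26 and -0.42), its effect with both being 0.43 against a sum of 0.79. Both had an unadjusted p under 0.05 in limma's fit and did not pass after adjustment.

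Interferon-gamma inducible GTPases and Irf1 showed the widest spread between replicate numbers. The median over 12 genes was 0.38 in number 1, 0.13 in number 2 and -0.82 in number 3, with 11, 7 and 1 genes above 0, and the median of the mean departures was -0.16. In number 3 the median effect was 0.37 with sCD74 and 1.14 with MIF, and 0.67 with both, below that of MIF alone. In number 1 it was -0.17, 0.15 and 0.27, and in number 2 it was 0.61, 0.45 and 1.00.

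Promoters of 3 GTPase genes and of Cxcl10, over the same stretch and from the same assembly, are shown because their departures differed in sign between replicate numbers. Igtp (chr11:58199356-58199575, plus strand), Gbp2 (chr3:142620463-142620682, plus strand) and Tgtp2 (chr11:49064193-49064412, minus strand) encode interferon-inducible GTPases. Capitals mark GAAA, any 2 bases and GAAA on either strand, the letters of an interferon-stimulated response element. Cxcl10 (chr5:92348870-92349089, minus strand), a chemokine gene whose mean with carrier lay below the negative control median, so that its departure has no size here, carries kappaB letters in capitals, GGGA, any 4 bases and CC on either strand.
Igtp: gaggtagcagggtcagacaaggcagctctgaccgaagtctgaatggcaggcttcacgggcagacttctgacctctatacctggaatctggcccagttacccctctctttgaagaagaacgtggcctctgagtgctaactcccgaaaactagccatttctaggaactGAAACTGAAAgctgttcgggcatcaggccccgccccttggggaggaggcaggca
Gbp2: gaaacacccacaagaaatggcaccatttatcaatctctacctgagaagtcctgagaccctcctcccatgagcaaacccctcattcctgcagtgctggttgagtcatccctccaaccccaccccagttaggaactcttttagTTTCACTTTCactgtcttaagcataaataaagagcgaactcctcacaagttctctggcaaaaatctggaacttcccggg
Tgtp2: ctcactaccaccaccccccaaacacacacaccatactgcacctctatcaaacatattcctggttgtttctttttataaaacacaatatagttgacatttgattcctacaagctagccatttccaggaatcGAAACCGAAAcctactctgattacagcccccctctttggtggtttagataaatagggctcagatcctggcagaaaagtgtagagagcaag
Cxcl10: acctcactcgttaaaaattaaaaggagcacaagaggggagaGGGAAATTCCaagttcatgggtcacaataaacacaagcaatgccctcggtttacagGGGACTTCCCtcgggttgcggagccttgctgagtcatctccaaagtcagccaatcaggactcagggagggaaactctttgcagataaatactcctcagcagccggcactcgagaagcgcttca

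The response element letters occurred in 8 of 9 GTPase and related genes with a window of the same length as above and in 11 of 20 type I interferon-stimulated genes, against 3.94% of all tested genes with one. The kappaB letters occurred in 47.1% of 17 chemokine genes, 45.8% of 24 NF-kappaB targets, 41.7% of the 12 macrophage genes and 30% of the type I interferon-stimulated genes, against 26.2% of all. GAGGAA likewise occurred in 41.2% of chemokine genes, 45.8% of NF-kappaB targets and 45% of type I interferon-stimulated genes.

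Gbp4, a guanylate-binding protein of the cell's defence against intracellular microbes, stood at 7.97, 8.29 and 8.34 with carrier, 8.12, 9.52 and 9.16 with sCD74, 8.21, 8.95 and 10.47 with MIF, and 8.48, 9.73 and 9.48 with both. The MIF array of number 3 was the highest of the 12. Its departures were 0.12, -0.44 and -1.81, with a mean of -0.71 ± 0.44 that became -0.16 when replicate 3 was left out. Iigp1, an immunity-related GTPase, behaved alike (0.42, -0.54 and -1.90, mean -0.68 ± 0.39, and -0.06 without replicate 3).

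Gbp2 had 0.36, 0.18 and -0.92 (mean -0.13 ± 0.37, and 0.27 without replicate 3), and Igtp had 0.03, -0.41 and -0.59 (mean -0.32 ± 0.29, and -0.06 without sCD74 replicate 2). For the list, leaving out MIF replicate 2 gave a median of -0.37, and leaving out replicate 3 gave 0.21. The sign therefore rested on which arrays were kept.

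Type I interferon-stimulated genes, 9 of 29 of which lay below the negative control median in some group, spread in the same order. Their medians were 0.35, 0.16 and -0.52, with 21, 22 and 6 of the 29 above 0. Their overall median was -0.01, and leaving out carrier replicate 1 gave -0.22 and leaving out replicate 3 gave 0.18. Bst2 (tetherin, which holds budding virus on the cell) kept one sign, with 0.64, 0.50 and 0.49 and a mean of 0.54 ± 0.21. Dhx58 and Oas1a also had an unadjusted p under 0.05 above the sum, but both lay below the negative control median in all groups and get no size here.

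**Figure D3:**
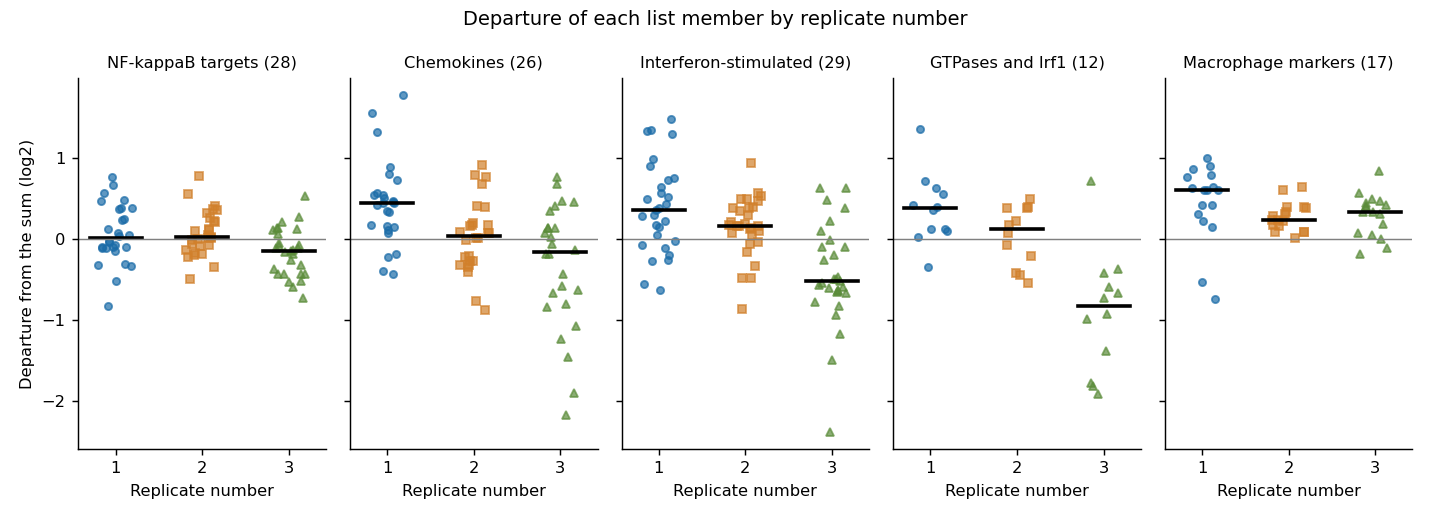
Departure of each member of 5 lists on the log2 scale, by replicate number, with a bar at the list's median in that number. The bar for GTPases and Irf1 goes from 0.38 in number 1 to -0.82 in number 3, while the bars of the macrophage markers lie at 0.60, 0.24 and 0.34.

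Genes of necroptosis and death receptor signalling were near the sum, with a median of -0.05 over 19 genes and 0 at an unadjusted p under 0.05 (against 3.86% of all genes). Ripk3, the kinase that starts necroptosis, stood at 8.29, 8.72 and 8.39 with carrier, 8.90, 8.83 and 8.44 with sCD74, 9.14, 8.89 and 8.86 with MIF, and 9.07, 8.89 and 8.94 with both. Co-treatment lay above carrier by 0.50, the same as MIF alone, and the departure was -0.25 ± 0.20 (-0.68, -0.11 and 0.03), or -0.04 without replicate 1. Mlkl, the executor that opens the membrane, had departures of -0.10, 0.07 and 0.01, a mean of -0.01 ± 0.19 and a 95% interval from -0.41 to 0.40.

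Casp8, the protease that restrains necroptosis, had 0.34, 0.19 and 0.11 (mean 0.21 ± 0.16). Fadd, the adaptor that recruits Casp8 to death receptors, had 0.60, 0.27 and 0.36 (mean 0.41 ± 0.21). Tnfrsf10b, a receptor of the death ligand TRAIL, had 0.26, 0.36 and 0.38 (mean 0.33 ± 0.17). Of the 19 genes, 4 (21.1%, against 13.8% of all genes) lay above the sum in every number and 3 (15.8%, against 13%) below it, while 12 had a mean departure below 0 (against 9922 of all 19505 genes). The 3 below were Cflar at -0.34, Tnfrsf1b, a receptor of tumour necrosis factor, at -0.24, and Cyld, a deubiquitinase, at -0.09. None of the 19 passed the test.

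Among genes of MIF itself and its receptors, 2 of 8 had a mean departure above 0 (against 9582 of all 19505 genes), and the median was -0.02. Mif stood at 10.27, 10.81 and 10.58 with carrier, 10.86, 10.92 and 10.58 with sCD74, 10.66, 10.84 and 11.20 with MIF, and 11.23, 10.85 and 10.72 with both. The departure was -0.19 ± 0.27, and leaving out MIF replicate 3 gave 0.02. Cd44, a co-receptor, had -0.01 ± 0.19 and Cxcr4, a chemokine receptor that also binds MIF, had -0.02 ± 0.27.

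A few further genes were described because they have marked single effects in this study or are known targets of inflammation. Single effects enter the departure with a minus sign, so choosing genes by them can favour a departure of the opposite sign. Clec4e, a macrophage receptor for damaged cells and mycobacterial lipid, stood at 9.31, 10.07 and 9.94 with carrier, 8.98, 10.61 and 9.91 with sCD74, 9.26, 10.70 and 11.64 with MIF, and 10.66, 12.04 and 11.83 with both. Co-treatment was the highest array in each number, and the effect of both was 1.74 against a sum of 0.82. The departure was 0.92 ± 0.39 (1.73, 0.81 and 0.22), with an unadjusted p of 0.0362 in limma's fit, and leaving out replicate 1 gave 0.51.

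Slc7a2, a transporter of arginine and other cationic amino acids, stood at 10.44, 10.28 and 10.08 with carrier, 10.81, 10.81 and 10.80 with sCD74, 10.57, 11.14 and 11.07 with MIF, and 10.95, 11.03 and 10.99 with both. All treated arrays lay above all carrier arrays, and the effect of both, 0.73, lay near that of MIF alone, 0.66, and not near the sum, 1.20. The departure was -0.47 ± 0.21 (0.01, -0.64 and -0.80), or -0.72 without replicate 1 and -0.31 without replicate 3. Slco3a1, an organic anion transporter, had -0.37 ± 0.26 (-0.09, -0.36 and -0.67), and -0.17 without MIF replicate 3. Ltbp2, a matrix protein of microfibrils, had -0.49, -0.59 and 0.69.

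Acod1, the enzyme that makes itaconate in activated macrophages, lay below the negative control median in 3 of the 4 groups, so its departure has no size here. Its sign differed between the numbers.

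**Figure D4:**
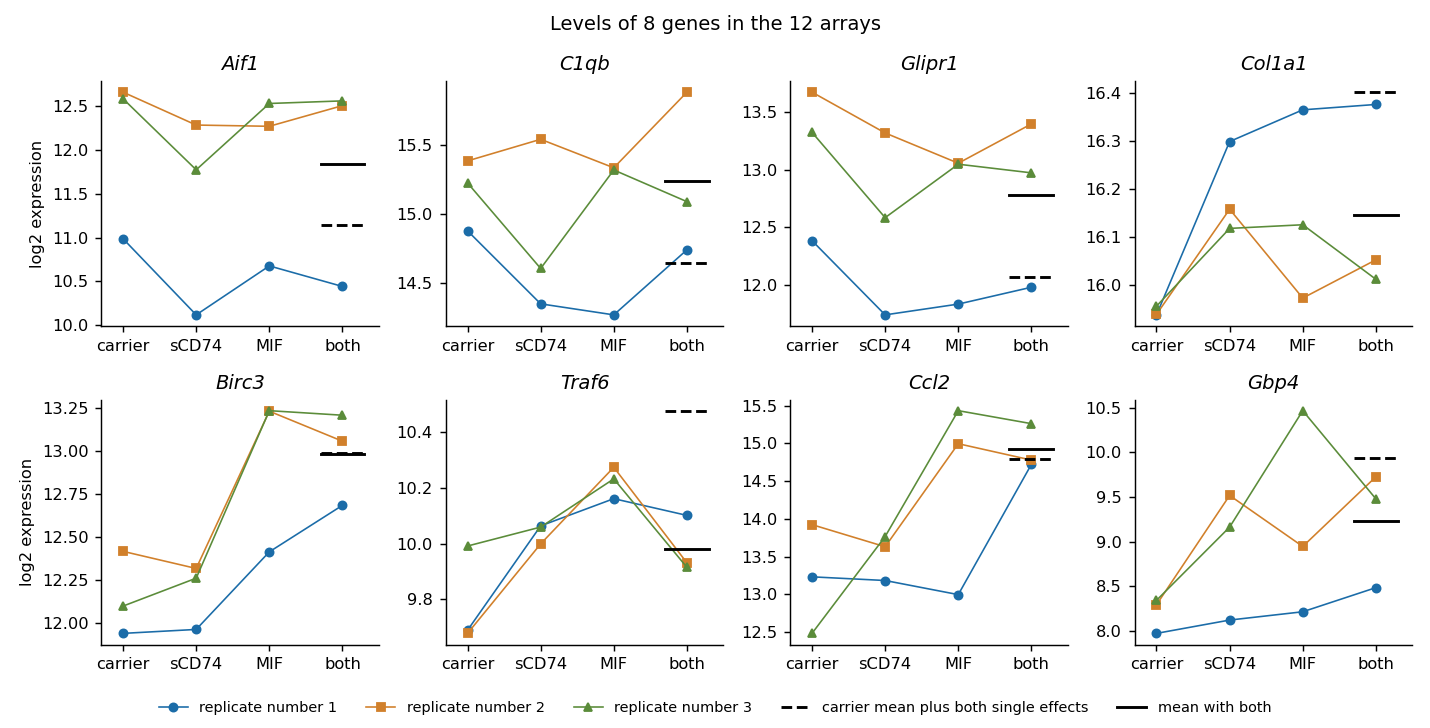
Log2 expression of 8 genes on the 12 arrays, with a line per replicate number across carrier, sCD74, MIF and both. The solid bar is the mean with both and the dashed bar the carrier mean plus the single effects; the bars of Birc3 lie within 0.01 of each other, and the solid bar of Aif1 lies 0.70 above the dashed one.

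Contractile genes of the myofibroblast had a median departure near 0, -0.04 over 17 genes, with -0.22, 0.07 and 0.02 in the 3 numbers. In all of them, 5 (29.4%) were above and 4 (23.5%) below 0, against 13.8% and 13% of all genes. An unadjusted p under 0.05 occurred in 2 above the sum (against 2.02% of all genes) and 0 below it (against 1.84%). Acta2, smooth muscle alpha-actin, had -0.04 ± 0.17 (-0.22, 0.01 and 0.09). Cnn1, the actin-binding protein calponin-1, had 0.69 ± 0.30 (0.27, 0.62 and 1.18, or a mean of 0.45 without replicate 3) and an unadjusted p of 0.0399 in limma's fit, and Vcl, vinculin of focal adhesions, had -0.34 ± 0.19 (-0.19 without replicate 1). Des, with an unadjusted p under 0.05, lay below the negative control median in all groups.

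Genes of cholesterol and fatty acid synthesis had a median of 0.09, with 17 of 22 above 0 (against 9582 of all 19505 genes) but 0 at an unadjusted p under 0.05 (against 3.86%). Dhcr7, the last enzyme of cholesterol synthesis, had 0.80, 0.39 and 0.63 (mean 0.61 ± 0.33), and 0.33 without sCD74_MIF replicate 1. Elovl6, a fatty acid elongase, had 0.48 ± 0.28, which ranged from 0.21 without sCD74_MIF replicate 1 to 0.74 without replicate 3. Nsdhl, a sterol dehydrogenase, had 0.33 ± 0.24, and 0.14 without MIF replicate 2. Leaving out MIF replicate 2 turned the list's median to -0.03.

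**Figure D5:**
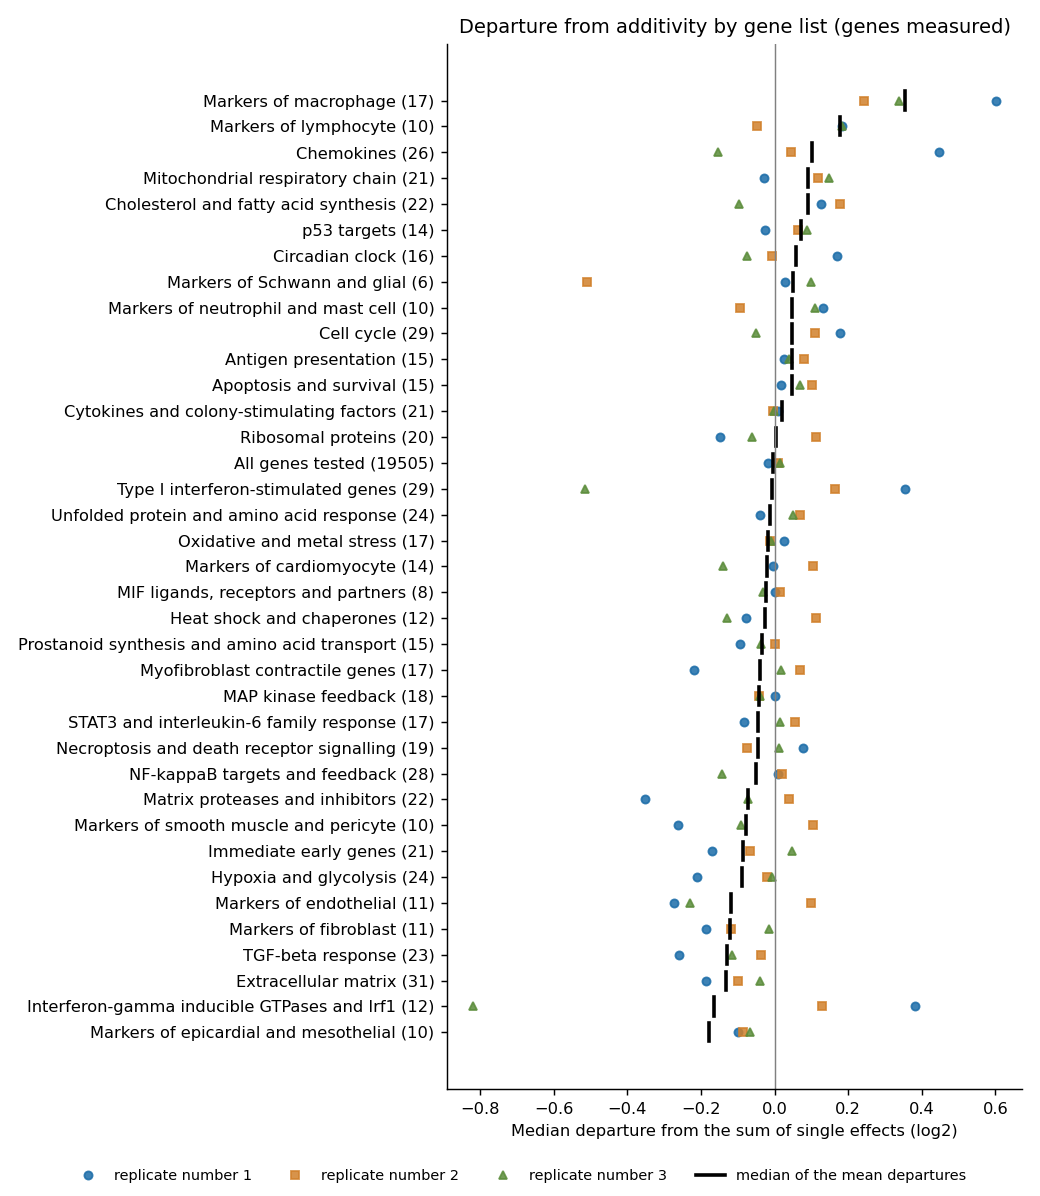
Median departure from the sum on the log2 scale for each of 36 gene lists and all 19505 genes, with a point per replicate number and a bar at the median of the mean departures. Macrophage markers have the highest bar, 0.36, with all 3 points above 0, and GTPases and Irf1 have the widest spread of points, from -0.82 to 0.38.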

How the data were processed

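The deposited table holds log2 expression of 28846 probe sets on 12 arrays. For its making, RMA, Transcriptome Analysis Console and Affymetrix Expression Console are given by the submitters' processing notes, with no version. Values ran from 3.08 to 18.39, higher than plain RMA of a scanner image gives, so the authors may have rescaled them, in a way the sources used here do not state, and sizes depend on that. Controls (6640) were left out, and 2634 probe sets had no gene symbol. For symbols with several probe sets the brightest was kept (67 dropped). Of 19505 genes, 37 share their values with another. Names were matched to RefSeq by Entrez ID.

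limma 3.58.1 in R 4.3.3 was fitted to all arrays, blocking on the replicate number, and the departure was tested two-sided with Benjamini-Hochberg adjustment. Arrays of one number share a code in the titles. As a check of this pairing, after group means were removed, arrays of one number correlated at 0.097 to 0.647 (over 0.1 in 17 of 18 pairs), and each of the 12 resembled its own number most. Errors beside departures are standard errors of this fit. An exact sign-flip test of 3 departures cannot give a two-sided p under 0.25. The fit was tested on simulated data.

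The lists, the named-gene rule and the fit were chosen with earlier results of these data known. Named were 12 genes per direction by smallest p (3 departures of 1 sign, all groups at or above the negative control median of 7.53, predicted genes and large families passed over), the 3 members of smallest p in each list described, and 17 fixed genes. The lists described, other members named and the promoters shown were chosen after values were seen. Genes below that median in a group get no size of their own in the results, but they stay in the list medians and counts.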

Additional observations from a re-analysis of the deposited data

How the results depend on the processing

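The count of genes called was 0 under each of the 23 alternatives, with a smallest adjusted p of 0.218. The count at an unadjusted p under 0.05, 752 with the replicate block, was 363 without the replicate block, of which 362 were among the 752, and 376 when only the 10982 genes at or above the negative control median in all groups were kept. Leaving out arrays gave 552 (without replicate 1) to 1070 (without MIF replicate 3). Centring, a second quantile normalization, an intensity trend with robust variance, all probe sets, the linear scale and the one-sample test gave 730 to 1036 and changed no call. Of the 70 genes followed, 3 of 555 values under other alternatives reversed, all on the linear scale over carrier, where effects add as amounts rather than multiply and the unit is the carrier level, not log2: Mlkl to 0.011, Ccl2 to -0.14 and Gbp2 to 0.17. Leaving out arrays reversed 53 of 1050 values, all in genes with a mean near 0 or a wide spread. Acod1, which lay below the negative control median in 3 groups, is among them, and its fitted values of -0.69 to 0.81 are no measure of size. The ranges of the others were -0.10 to 0.071 for Acta2, -0.16 to 0.12 for Birc3, -0.69 to 0.93 for Ccl2, -0.36 to 0.82 for Ccl7, -0.17 to 0.23 for Cd44, -0.25 to 0.19 for Cxcr4, -0.45 to 0.27 for Gbp2, -0.54 to 0.10 for Ltbp2, -0.42 to 0.023 for Mif, -0.11 to 0.094 for Mlkl and -0.20 to 0.17 for Nfkbia. List medians changed sign in 10 of 296 values under other alternatives and 100 of 555 with arrays left out. The median for macrophage markers stayed above 0 in all of them and that for matrix genes below 0 with arrays left out. Except where said, the cause was not tested. Signal over background limits genes near the negative control median, which 8523 of 19505 genes fell below in some group.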

Other observations

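Housekeeping and proliferation genes gave a scale for the departures described above. Ribosomal proteins, the structural part of the translation machinery, had a median departure of 0.004 over 20 genes, with -0.15, 0.11 and -0.06 in replicate numbers 1, 2 and 3. Mitochondrial respiratory chain genes had a median of 0.09 over 21, with 15 above 0, and cell cycle genes one of 0.05 over 29, with 22 above 0, against 9582 of all 19505 genes. Endothelial markers had a median of -0.12 over 11 genes (-0.27, 0.10 and -0.23), and their mean level was higher on the arrays of number 1 (10.46 to 10.56) than on those of numbers 2 and 3 (8.87 to 9.60) in every group. None of these lists held a gene that passed the adjusted test.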
